A study of Mus musculus with 73 samples.

Results

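The combinations described here joined an enhancer fragment either to a second copy of itself or to a neighbour in the genome with which it shares part of its coordinates. They were taken from the enhancer-enhancer (EE) combinations in which both fragments had the same name, or in which the fragments were Nanog_E073 and Nanog_E074, Sox2_E181 and Sox2_E182, Otx2_E110 and Otx2_E111, Otx2_E111 and Otx2_E112, or Nodal_E159 and Nodal_E160, in either order. Of 110180 measured combinations, 69206 were EE, and 285 of these met the rule, 21 with the same fragment in both positions and 264 with overlapping fragments. The data come from a massively parallel reporter assay in E14tg2a cells, a line of mouse embryonic stem cells, in which 2 fragments in positions 1 and 2, each in the + or - orientation, were cloned downstream of a barcoded reporter gene driven by 1 of 8 promoters. These were the promoters of *Ap1m1*, *Fgf5*, *Klf2*, *Lefty1*, *Nanog*, *Otx2*, *Sox2* and *Tbx3*. Each promoter library was transfected in 3 biological replicates on different days, and cells were collected after 24 hours. All 8 groups shared the cell line, the vector and the treatment, and differed in the promoter. As the reporter was carried on plasmids in 1 cell line, the values describe episomal reporter activity in these cells. In all there were 73 samples: 48 of cDNA, 16 of plasmid DNA (pDNA) and 9 of inverse PCR products.

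Enhancers are DNA elements that raise transcription from a promoter through the transcription factors bound to them, and many genes are controlled by several enhancers lying close together. When 2 elements are placed beside the same promoter, their contributions can add up, remain at the level of the stronger element, or exceed the sum. A fragment joined to its own copy offers the promoter repeated binding sites. A neighbour that carries part of the same DNA may do so where the shared part holds such sites. Repeats are known to be hard to amplify and to propagate in plasmids. The genes named here belong to the regulatory network of early embryonic cells: *Nanog*, *Sox2* and *Pou5f1* encode core pluripotency transcription factors, *Klf2* and *Tbx3* transcription factors of the naive state, *Nodal* a ligand of the TGF-beta family, *Lefty1* an inhibitor of Nodal signalling, and *Otx2* and *Fgf5* a transcription factor and a growth factor of the primed state. *Ap1m1* encodes a subunit of a clathrin adaptor complex and is broadly expressed.

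All fragments are listed with a length of 450 bp in mm10, and none of those named here overlaps a gene in the RefSeq annotation of that build. Nanog_E073 (chr6:122702446-122702895) and Nanog_E074 (chr6:122702830-122703279) share 66 bp and lie 4593 bp and 4209 bp from *Nanog*. Sox2_E181 (chr3:34759891-34760340) and Sox2_E182 (chr3:34760278-34760727) share 63 bp and lie 107429 bp and 107816 bp from *Sox2*. Otx2_E110 (chr14:48654527-48654976) shares 88 bp with Otx2_E111 (chr14:48654889-48655338), which in turn shares 123 bp with Otx2_E112 (chr14:48655216-48655665), and the fragments lie between 1804 bp and 1115 bp from *Otx2*. Nodal_E159 (chr10:61415836-61416285) and Nodal_E160 (chr10:61416186-61416635) share 100 bp and lie 1686 bp and 1336 bp from *Nodal*. The 4 fragments found next to their own copy were Fgf5_E040 (chr5:98313134-98313583), 36100 bp from *Fgf5*, Pou5f1_E077 (chr17:35496631-35497080) and Pou5f1_E078 (chr17:35496908-35497357), 8951 bp and 8674 bp from *Pou5f1*, and Sox2_E178 (chr3:34755230-34755679), 102768 bp from *Sox2*.

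The fragments were amplified from genomic DNA, so their true ends are set by the primers of the study. The primers at the overlapping ends of 4 pairs are shown because they fix how much sequence a pair really has in common. For each of them, the complement of the reverse primer of the upstream fragment is followed by the forward primer of the downstream fragment, both written 5′ to 3′, with the bases found in both in capitals where they run for at least 10 bases.
Nanog_E073 reverse primer, complement: gtctcctaagcagactcctttgac
Nanog_E074 forward primer: ccctgtaccaaacctttgtagaacttg
Otx2_E110 reverse primer, complement: cctccatcccAGAACTTGCTTCT
Otx2_E111 forward primer: AGAACTTGCTTCTgaccctctgg
Otx2_E111 reverse primer, complement: ccaagtcggctttctcaatttgactag
Otx2_E112 forward primer: ccaaatccagcaaagccagtcagtc
Nodal_E159 reverse primer, complement: GCAGGAGACCGctggttcaa
Nodal_E160 forward primer: tttacttagcacGCAGGAGACCG
In the primers of Otx2_E110 and Otx2_E111, 13 bases coincided, and the amplified fragments then share 13 bp, which is 14.8% of the overlap listed by coordinates. In the *Nodal* primers 11 bases coincided, which places 32 bp in both products, 32.0% of the listed overlap. For the *Nanog* pair and for Otx2_E111 with Otx2_E112 no such run was found, and how much their products overlap was not determined here.

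Same-fragment pairs were almost missing from the libraries, whereas overlapping pairs were not. With both copies in the same orientation, 0 of 944 possible same-fragment combinations were measured, and with the copies in opposite orientations 21 of 944 (2.22%). Other EE combinations were measured in 63.2% of possible cases in the same and 63.0% in the opposite orientation. The 21 same-fragment combinations came from 1 arrangement each of 4 fragments: Fgf5_E040 with - in position 1 and + in position 2 in 6 libraries, Pou5f1_E078 with + and - in 6 libraries, Pou5f1_E077 with + and - in 5 libraries, and Sox2_E178 with - and + in 4 libraries. None of the 9 fragments of the overlapping pairs was measured beside its own copy. Control fragments were also never measured beside themselves, with 0 of 320 combinations in each orientation, where other control pairs were measured in 40.9% of cases in the same but in 1.61% in the opposite orientation. Of the overlapping pairs, 137 of 160 combinations (85.6%) were measured in the same and 127 of 160 (79.4%) in the opposite orientation. The losses among them lay mostly in the *Nodal* pair, where no combination of Nodal_E160 in + orientation in position 1 with Nodal_E159 was measured in any library. With its other enhancer partners, Nodal_E160 in position 1 was measured in 23.9% of cases in + and 75.9% in - orientation. At which step combinations were lost was not tested.

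The activity of a combination is the cDNA to pDNA ratio averaged over its barcodes, and its boost index is the log2 of that activity over the baseline of the library, the median of combinations of 2 control fragments. The single-enhancer activity of a fragment is the median over its combinations with controls (EC combinations) in the same position. For 2 fragments that act additively, the activity expected is obtained by adding their single-enhancer activities and subtracting the baseline once. No member had an activity of 0 in any replicate. The median SD of log2 activity over replicates was 0.15 for overlapping, 0.40 for same-fragment and 0.17 for other EE combinations, so same-fragment values were the least reproducible. The baseline of the *Fgf5* library rested on 23 control combinations, against 219 to 477 in the other libraries, and deviations there were accordingly uncertain. Numbers of barcodes and counts behind each activity were not in the table, so the depth is unknown.

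Overlapping pairs lay below the sum of their single enhancers more often than EE combinations in general. Of 254 overlapping combinations with an expected activity, 83 (32.7%) were lower and 30 (11.8%) higher than additive at a 5% FDR (limma), while of 63450 EE combinations tested 15.7% were lower and 25.5% higher. Their median log2 of observed over expected activity was -0.19, against 0.07 for all EE combinations. By pair, the share lower than additive was 71.7% for *Nanog* (33 of 46) and 34.4% for Otx2_E110 with Otx2_E111. It was 27.8% for *Sox2*, 19.4% for *Nodal* and 11.9% for Otx2_E111 with Otx2_E112. Averaged over the 8 libraries, the median was -0.16 ± 0.05 (SD, n = 3 replicates) for overlapping and 0.15 ± 0.02 for other EE combinations. Among 20 same-fragment combinations, 9 (45.0%) were lower and 1 was higher, with a median of -0.48 and a mean over libraries of -0.27 ± 0.15. This mean weights libraries with 1 to 4 combinations equally. It includes *Fgf5* at 1.01, from 2 combinations with replicate medians of -0.16, 2.85 and 0.33. Members of a pair share fragments and single-enhancer medians, so these combinations are not independent. The counts depended on all 3 replicates: without replicate 1, 24 overlapping combinations were lower and 3 higher, without replicate 2, 36 and 3, and without replicate 3, 73 and 17. For same-fragment combinations, 3 were lower and 0 higher without replicate 1, and 4 were lower without replicate 2. Their mean over libraries was -0.45 without replicate 1, -0.45 with combinations above the baseline only and -0.46 with at least 10 EC combinations per fragment.

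Beside the stronger of both single enhancers, the median overlapping combination was at the same level, but the pairs differed. In this comparison 56 of 254 overlapping combinations were higher, 57 lower and 141 not different at a 5% FDR, with a median log2 ratio of 0.00. Of 63673 EE combinations, 49.1% were higher and 8.3% lower than their stronger single enhancer, with a median of 0.30. By overlapping pair, the shares higher and lower were 40.7% and 11.9% for Otx2_E111 with Otx2_E112, and 37% and 20.4% for *Sox2*. They were 9.68% and 3.23% for *Nodal*, 8.7% and 32.6% for *Nanog*, and 7.81% and 35.9% for Otx2_E110 with Otx2_E111. With a weak fragment in the pair, the additive expectation itself lies near the stronger single enhancer. In *Lefty1* its boost index was 4.29 for Otx2_E110-Otx2_E111, beside 4.28 for Otx2_E111 alone. Of 21 same-fragment combinations, 2 were higher and 6 lower, with a median of -0.22. Without replicate 1, 30 overlapping combinations were higher and 35 lower, and without replicate 2, 30 and 36, whereas no same-fragment combination was higher without replicate 1. Measured against the propagated spread of the expectation, 63 overlapping combinations lay more than 1 SD below the expected additive activity and 20 above it, where 8.06% and 17.2% of all EE combinations did so, and 5 same-fragment combinations lay below and 2 above.

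Of the 5 overlapping pairs, the *Nanog* fragments fell furthest short of additivity. Both fragments were strong alone, with single-enhancer boost indices in the *Nanog* library of 2.21 for Nanog_E073 in position 1 and 1.70 for Nanog_E074 in position 2. Together they reached boost indices of 1.66, 2.28 and 1.67 in the 3 replicates of that library, as the median over 8 combinations of both orders. In the *Lefty1* library the boost indices were 4.65, 4.93 and 4.84, in *Tbx3* 4.83, 4.62 and 3.51, and in *Klf2* 1.65, 2.20 and 1.64. The pair was thus active in these libraries. Its log2 ratio to the stronger single enhancer was -0.43 ± 0.19 (SD, n = 3 replicates) in *Nanog*, with every replicate below 0. It was -0.11 ± 0.29 in *Klf2*, 0.18 ± 0.43 in *Tbx3* and 0.31 ± 0.17 in *Lefty1*. In *Otx2* the replicates gave 1.33, 1.80 and 1.48, in *Ap1m1* 0.20, 0.69 and 0.29, and in *Sox2*, where 1 combination was measured, 4.05, 4.06 and 4.01. No combination of this pair was measured in the *Fgf5* library.

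The log2 of observed over expected activity of the *Nanog* pair was below 0 in all 7 libraries with data, at -1.02 in *Sox2*, -0.99 in *Nanog*, -0.97 in *Otx2*, -0.70 in *Klf2*, -0.55 in *Tbx3*, -0.48 in *Lefty1* and -0.43 in *Ap1m1*. The mean over libraries was -0.74 ± 0.15 (SD, n = 3 replicates), and against the stronger single enhancer -0.11 ± 0.21. Of 46 combinations, 33 (71.7%) were lower and 0 higher than additive, and 39 (84.8%) had an unadjusted p under 0.05, against 52.6% of all EE combinations. All 8 arrangements of order and orientation had means below 0, from -0.98 to -0.44. The lowest combination, Nanog_E073- Nanog_E074- with the *Nanog* promoter, had activities of 0.643, 1.103 and 0.933 where 2.23 was expected, a log2 ratio of -1.33 ± 0.16 (SE, adjusted p = 0.00783). The single exception to the direction was Nanog_E074- Nanog_E073+ with the *Lefty1* promoter, whose activities of 4.19, 3.30 and 4.24 lay around the 3.58 expected (0.10 ± 0.13, adjusted p = 0.589) and above the stronger single enhancer (0.95 ± 0.11, adjusted p = 0.00415).

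The *Nanog* pair was set beside other pairs of comparable expected strength. When EE combinations of a library were divided into 4 equal bins by expected activity, the median combination of the pair was in the highest bin in 6 libraries, and the medians of all EE combinations in that bin were -0.22 in *Nanog*, -0.15 in *Otx2*, -0.13 in *Klf2*, -0.03 in *Sox2*, 0.02 in *Lefty1* and 0.07 in *Tbx3*, all nearer to 0 than the values of the pair. Among the pairs with Nanog_E073 in position 1, the one with Nanog_E074 ranked between the second and the seventh from the lowest of 51 to 55 pairs. With Nanog_E074 in position 1, the pair was less extreme among the pairs of that fragment, at rank 17 of 54 in *Ap1m1*, 14 of 40 in *Klf2*, 17 of 55 in *Lefty1*, 10 of 37 in *Otx2*, 8 of 51 in *Tbx3*, 7 of 51 in *Nanog* and 4 of 31 in *Sox2*. Nanog_E074 in position 1 was itself below additivity with its other partners, with a median of -0.37 in the *Nanog* library. A test chosen after the data were seen compared each ordered pair with the medians that both fragments reached with their other partners. It called 5.41% of 19304 ordered pairs higher and 6.55% lower, and of 74 ordered overlapping pairs 0 were higher and 7 (9.46%) lower (limma), with 35 (47.3%) at an unadjusted p under 0.05, 11 of them higher, where 6702 of all ordered pairs (34.7%) had such a p, 3216 of them higher. Of the 7, 5 belonged to the *Nanog* pair: Nanog_E073-Nanog_E074 with the *Otx2* (-0.65), *Nanog* (-0.59) and *Tbx3* (-0.47) promoters, and Nanog_E074-Nanog_E073 with *Sox2* (-0.72) and *Nanog* (-0.39). All 13 ordered values of this pair were below 0. The others were Otx2_E110-Otx2_E111 with *Fgf5* (-0.96) and Sox2_E181-Sox2_E182 with *Lefty1* (-0.31). With any 1 replicate left out, no overlapping pair passed this test.

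The order of the *Nanog* fragments changed activity in part of the libraries. With Nanog_E074 in position 1 and Nanog_E073 in position 2, activity was higher than in the reverse order in 4 of 6 libraries with both orders measured, and the mean log2 difference, Nanog_E073 first minus Nanog_E074 first, was -0.33 over the 6. Of 9395 EE pairs, 29.4% were called between orders, 15.4% with the fragment named first by number higher in position 1 and 14% with it lower, and of 38 overlapping pairs 17 were called. This test was chosen after the data were seen, and with replicate 1 or replicate 2 left out it called no overlapping pair, with replicate 3 left out 4.

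The 2 pairs of *Otx2* fragments, which have Otx2_E111 in common, lay on different sides of additivity, a difference that was not tested. Otx2_E111 was strong alone, with single-enhancer boost indices in the *Lefty1* library of 4.28 in both positions, whereas Otx2_E110 reached 0.28 in position 1 and Otx2_E112 0.41 in position 2 of that library. Otx2_E111 with Otx2_E112 gave boost indices of 4.42, 4.49 and 4.40 in *Lefty1* and 0.75, 1.08 and 0.88 in *Ap1m1*. Otx2_E110 with Otx2_E111 gave 3.91, 3.84 and 4.09 in *Lefty1* and 0.71, 0.96 and 0.81 in *Ap1m1*. The *Lefty1* replicates of both pairs did not overlap, while those in *Ap1m1* did. Over both orders, Otx2_E111 with Otx2_E112 lay above additivity in 8 of 8 libraries, between 0.02 and 0.39, with a mean of 0.16 ± 0.05 (SD, n = 3 replicates), and 17 of 59 combinations were higher and 7 lower. The mean was 0.21 with Otx2_E111 in position 1. With Otx2_E112 in position 1 it was 0.07, and 4 of 8 libraries were below 0. Other EE combinations had higher medians in *Fgf5* (0.60 beside 0.39), *Lefty1* (0.24 beside 0.14) and *Sox2* (0.17 beside 0.09). Their median was equal in *Tbx3* (0.27) and lower in *Ap1m1*, *Klf2*, *Nanog* and *Otx2*. Otx2_E110 with Otx2_E111 lay below 0 in 7 of 8 libraries, with a mean of -0.16 ± 0.12, and 2 of 64 combinations were higher and 22 lower. The shares for Otx2_E111 with Otx2_E112 were 28.8% higher and 11.9% lower, close to those of all EE combinations. With the multiplicative expectation, the product of both single-enhancer activities over the baseline, the mean of Otx2_E111 with Otx2_E112 was -0.20, opposite in sign.

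Within the pair of Otx2_E111 and Otx2_E112, 1 arrangement stood apart from the others. In the order Otx2_E111-Otx2_E112, the mean log2 of observed over expected activity was 0.38 with both fragments in + orientation, 0.25 with - and +, 0.17 with + and -, and -0.40 with both in - orientation. With both in -, the value was below 0 in 8 of 8 libraries and called lower in 6, while with both in + it was above 0 in 8 of 8 and called higher in 6. With the *Ap1m1* promoter the activities were 0.583, 0.632 and 0.630 for the former and 1.14, 1.26 and 1.18 for the latter, where 0.877 was expected for both. With the *Lefty1* promoter they were 1.15, 1.14 and 1.14 against 2.40, 2.299 and 2.20, with 1.72 expected. In neither library did the replicates of both arrangements overlap. With single enhancers taken in the same orientation, the means were -0.29 and 0.29.

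Orientation was then compared for each fragment of a pair, a test chosen after the data were seen, in which 25.1% of 34878 comparisons over all EE pairs were called, 13.4% with the + orientation higher and 11.8% with it lower, and among overlapping pairs 34 of 136, 27 higher and 7 lower. Otx2_E111 in position 1 next to Otx2_E112 was more active in + than in - orientation by a mean of 0.35 on the log2 scale, with all 3 replicates above 0 in 8 of 8 libraries and a call in 6. Next to controls the same difference was 0.04, and next to other enhancers 0.02. The excess over other partners was 0.34 on average, between 0.13 and 0.46, and above 0 in 8 of 8 libraries, but it was not significant in any of them after adjustment (limma, smallest adjusted p = 0.107), with an unadjusted p under 0.05 in 6. The test of this excess called 0 of 34878 comparisons over all EE pairs, where 21.5% had an unadjusted p under 0.05, and 22.1% of overlapping ones. In position 2, Otx2_E111 beside Otx2_E110 was more active in + orientation by 0.43, and its difference was 0.41 beside controls and 0.43 beside other enhancers. Otx2_E112 in position 2 beside Otx2_E111 likewise differed by 0.43, against 0.66 beside controls and 0.61 beside other enhancers. With any 1 replicate left out, none of the 34 overlapping comparisons remained called.

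For Otx2_E110 and Otx2_E111, activity differed between the orders, as did the additive expectation in part of the libraries. With Otx2_E110 in position 1, activity was higher than with Otx2_E111 in position 1 in all 3 replicates of 8 of 8 libraries. The log2 difference was 0.21 to 0.40, and 0.29 on average. Of the 8 libraries 6 were called, where 29.4% of all EE pairs were. With 1 replicate left out, 0 to 4 overlapping pairs remained called. The expected boost index with Otx2_E110 and with Otx2_E111 in position 1 was 1.06 and 0.70 in *Ap1m1*, and 1.99 and 1.62 in *Klf2*. It was 2.20 and 2.03 in *Nanog*, 1.98 and 1.76 in *Otx2*, and 4.03 and 3.84 in *Tbx3*. In *Lefty1* both were 4.29, in *Fgf5* 3.12, and in *Sox2* they were 3.85 and 3.98. The part of the expectation was not tested. The arrangements furthest below additivity were Otx2_E110- Otx2_E111-, with a mean of -0.49 and 6 calls, and Otx2_E111+ Otx2_E110+, with a mean of -0.44 and 4 calls. The former was -0.23 with single enhancers of the same orientation and the latter -0.46.

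The pair of *Sox2* fragments was near additivity on average but varied most between its arrangements. The mean log2 of observed over expected activity was -0.07 ± 0.03 (SD, n = 3 replicates) over 7 libraries and 0.06 with orientation-matched single enhancers, opposite in sign, and 11 of 54 combinations were higher and 15 lower. With the *Sox2* promoter the value was 0.24 ± 0.22, in a library where the median of other EE combinations was 0.17 and that of the bin of like expected activity 0.31, and in the other 6 libraries it was below 0. In the *Fgf5* library its expected activity could not be computed, and the pair had boost indices of 2.04, 1.37 and 1.68 in the 3 replicates. Arrangements with Sox2_E182 in position 1 and Sox2_E181 in - orientation in position 2 were above additivity, with means of 0.45 and 0.34 and 4 calls each, whereas those with Sox2_E181 in + orientation were below it, with means of -0.55 and -0.88 and 4 and 5 calls. With the *Nanog* promoter, Sox2_E182- Sox2_E181+ had activities of 0.605, 0.447 and 0.380 where 1.14 was expected (-1.24), while Sox2_E182+ Sox2_E181- had 1.34, 1.19 and 1.29. These replicates did not overlap.

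The orientation of Sox2_E181 was compared with that beside other partners. In position 2 beside Sox2_E182, its + orientation was less active than its - orientation by a mean log2 difference of -1.09, in all 3 replicates of 8 of 8 libraries and with a call in 7. The same difference was -1.20 beside controls and -1.05 beside other enhancers. In position 1 the sign was the opposite, with a mean of 0.58 beside Sox2_E182 and 4 calls, against 0.12 beside controls and 0.21 beside other enhancers. The excess over other enhancers there was 0.36 on average, between 0.24 and 0.67, above 0 in 8 of 8 libraries and at an unadjusted p under 0.05 in 4, but in none after adjustment (limma, smallest adjusted p = 0.130). With single enhancers of the same orientation, the 4 means of the order Sox2_E182-Sox2_E181 moved toward 0, to 0.25 and 0.22 with Sox2_E181 in - and to -0.27 and -0.44 with it in + orientation. In the other order, Sox2_E181+ Sox2_E182+ was above additivity (mean 0.33, 3 calls) and Sox2_E181- Sox2_E182- below it (mean -0.42, 5 calls).

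Outside the *Ap1m1* library, the *Nodal* pair joined a strong and a weaker fragment and stayed close to the strong one. With *Ap1m1*, single-enhancer boost indices were 0.17 for Nodal_E159 in position 1 and 0.50 for Nodal_E160 in position 2. They were 0.28 for Nodal_E160 in position 1 and 0.45 for Nodal_E159 in position 2. In the *Lefty1* library, the single-enhancer boost indices were 4.66 for Nodal_E159 in position 1 and 0.80 for Nodal_E160 in position 2, and the pair had 4.46, 4.80 and 4.82 in the 3 replicates. In *Sox2* the pair had 4.22, 4.43 and 3.27, and in *Fgf5* 4.14, 3.74 and 3.45. The mean log2 of observed over expected activity was -0.16 ± 0.07 (SD, n = 3 replicates) over 8 libraries, and 0 of 31 combinations were higher and 6 (19.4%) lower, the latter near the 15.7% of all EE combinations. An unadjusted p under 0.05 was reached by 9 (29.0%), against 52.6% of all EE combinations (limma). With its other partners, Nodal_E159 had medians between -0.35 and -0.05 in position 2 in the 8 libraries. In position 1 they lay between -0.34 and 0.13, and both ranges hold the mean of the pair. Nodal_E160 in position 1 had medians between -0.22 and 1.23, which also hold it, but in position 2 between -0.004 and 0.92, above it. Among pairs with Nodal_E160 in position 2, the one with Nodal_E159 ranked between 1 of 31 in *Sox2* and 14 of 39 in *Tbx3* from the lowest. With Nodal_E160 in position 1 it ranked between 1 of 31 in *Fgf5* and 36 of 55 in *Ap1m1*. Against the stronger single enhancer the mean of the pair was 0.01 ± 0.07.

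Whether both fragments pointed the same or opposite ways gave no call in overlapping pairs, in a test that called no EE pair at all. Of 75 ordered pairs with both settings, 0 differed at a 5% FDR (limma), 21 (28.0%) had an unadjusted p under 0.05, and the log2 differences lay between -0.72 and 0.65. Over all EE pairs 0 of 19481 were called and 23.5% had an unadjusted p under 0.05, so 3 replicates resolved no such difference for any pair. In the order Otx2_E111-Otx2_E112, opposite minus same orientation was 0.28 to 0.31 in *Ap1m1*, *Lefty1*, *Nanog*, *Otx2* and *Tbx3*. It was 0.16 in *Fgf5*, 0.14 in *Klf2* and 0.00 in *Sox2*. In the order Otx2_E112-Otx2_E111 the differences had the opposite sign, between -0.22 and -0.01. For same-fragment pairs this comparison could not be made, as each occurred in 1 arrangement.

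Deviations from additivity differed between promoters for 12 of the 15 overlapping combinations measured in all 8 libraries with an expected activity, at a 5% FDR. This is 80.0%, beside 80.6% of all 3204 EE combinations so measured. All 15 were of the 2 pairs of *Otx2* fragments or of Nodal_E160-Nodal_E159. The *Nanog* pair was not measured in the *Fgf5* library and the pair of *Sox2* fragments had no expected activity there, so neither was tested. The highest F values were 12.6 for Otx2_E111- Otx2_E112- (adjusted p = 3.01e-05), which ranged from -0.05 in *Fgf5* to -0.61 in *Nanog*, 7.55 for Otx2_E112+ Otx2_E111+, from 0.07 in *Nanog* to 0.53 in *Fgf5*, and 7.33 for Otx2_E111- Otx2_E112+, from 0.09 in *Sox2* to 0.54 in *Fgf5*. In each of them the *Fgf5* library held the highest value. Without replicate 1, 4 of the 15 (26.7%) differed between promoters, without replicate 2, 8 (53.3%), and without replicate 3, 7 (46.7%), against 60.5%, 60.4% and 66.9% of all EE combinations tested.

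Among same-fragment pairs, Fgf5_E040 was the most often below additivity. In the *Sox2* library the inverted repeat had activities of 0.717, 0.670 and 0.583, all below the single-enhancer activities of 0.979 in position 1 and 0.815 in position 2, while 1.62 was expected (-1.34 ± 0.09 SE, adjusted p = 0.00637). In the *Lefty1* library the activities were 0.207, 0.220 and 0.270, with single-enhancer activities of 0.348 and 0.261 and an expectation of 0.522 (-1.22 ± 0.14, adjusted p = 0.00872). All replicates of the repeat were thus below the stronger single enhancer in both libraries. In *Klf2* the activities of 0.552, 0.510 and 0.591 were below an expectation of 1.04 (-0.88 ± 0.08), in *Tbx3* 0.253, 0.357 and 0.460 below 0.654 (-0.92 ± 0.17), and in *Nanog* 0.677, 0.487 and 0.825 below 1.15 (-0.74 ± 0.18). These 5 libraries were called lower, and only *Ap1m1*, in which the fragment was weak, was near additivity (0.622, 0.940 and 0.723, with 0.752 expected). The mean over 6 libraries was -0.85 ± 0.19 (SD, n = 3 replicates). The repeat was lower than its stronger single enhancer in *Klf2* (-0.49), *Lefty1* (-0.68) and *Sox2* (-0.63). With orientation-matched single enhancers the mean was -0.83.

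The other 3 same-fragment pairs lay on both sides of additivity. Pou5f1_E077 had activities of 0.602, 0.616 and 0.325 with the *Tbx3* promoter, above an expectation of 0.196 (1.24 ± 0.25 SE, adjusted p = 0.0239) and above the stronger single enhancer (1.42 ± 0.35, adjusted p = 0.0256), the highest value among the members called higher than additive. With the *Nanog* promoter it had 0.366, 0.271 and 0.207 where 0.566 was expected (-1.06 ± 0.19, adjusted p = 0.0159). With *Ap1m1* it was lower (-0.25) and with *Lefty1* not called (0.22). Its value of 2.53 in *Fgf5* rested on an expectation of 0.0531 below a baseline of 0.213 and was not called (SE 0.91, adjusted p = 0.101). Pou5f1_E078 was lower than additive with *Nanog* (0.305, 0.291 and 0.343, with 0.541 expected) and *Ap1m1* (0.618, 0.471 and 0.568, with 0.758 expected), and in 3 other libraries it was not called. In the *Fgf5* library it had no additive expectation above 0 in every replicate, and was higher than its stronger single enhancer (1.11 ± 0.23). Sox2_E178, named after its values were seen because it was measured in only 4 libraries, was called in 0 of 4 (limma, 0 at an unadjusted p under 0.05), and its activities in *Fgf5* spread from 0.0357 to 0.363.

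Pou5f1_E077 and Pou5f1_E078 also overlap each other by coordinates, though they were not among the pairs selected. Side by side they gave a log2 of observed over expected activity of -0.85 in *Ap1m1*, -0.44 in *Nanog*, 0.29 in *Lefty1* and 1.02 in *Tbx3*. The values of Pou5f1_E077 beside its own copy in the same libraries were -0.25, -1.06, 0.22 and 1.24, and those of Pou5f1_E078 beside its own copy -0.45, -0.69, -0.52 and 0.05. Pou5f1_E082 and Pou5f1_E083 share 100 bp and were also not selected. Side by side they were at -0.16 in *Otx2*, -0.10 in *Ap1m1*, -0.07 in *Nanog*, -0.04 in *Klf2*, 0.23 in *Lefty1* and 0.49 in *Tbx3*. Pou5f1_E077 beside Pou5f1_E079 was at -0.80 in *Lefty1*.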

How the data were processed

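The authors mapped fragments by inverse PCR, counted barcodes in cDNA and pDNA, divided counts by sample totals, and deposited an activity per replicate, the mean cDNA to pDNA ratio over at least 5 barcodes with at least 8 pDNA counts each. The submitters' notes name Bowtie2 and mm10. The authors' deposited expected activities, log2 ratios and boost indices were not used. EE combinations were identified by the control label of each fragment, since the class column labels shuffled controls as enhancers. In EC combinations, fragment names showed which position held the control.

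Activities were log2-transformed, combinations at 0 in a replicate were left out, and baselines were recalculated from control combinations above 0. Single-enhancer medians required 6 EC combinations. Per combination, the log2 ratio of observed to expected activity in 3 replicates was tested against 0 with limma 3.58.1 in R 4.3.3 (lmFit, eBayes). Each library was fitted separately over its EE combinations, with Benjamini-Hochberg adjustment over all libraries together. Promoters were compared by limma's moderated F over 24 library replicates. Tables were prepared with Python 3.11.15, pandas 2.3.3, numpy 2.4.6 and the R package data.table (1.17.8). The calculations were tested on simulated data. Correlations between samples with the same replicate number in different libraries averaged 0.07 (84 pairs, 26 of them over 0.1). With different numbers they averaged -0.03 (168 pairs, 2 of them over 0.1). Some variation may thus be shared by replicate number. The main tests did not pair samples by number, and a block for the number was used only as an alternative. P-values measure the spread between the 3 replicates of a library.

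Members and lists were chosen with earlier results of these data known. The comparisons with other partners, between orders and between strands were chosen after the data were seen. Named are all 9 overlapping fragments, the same-fragment pairs with the highest and lowest means among those in at least 5 libraries, the 3 highest F values and the largest called deviations. Alternatives changed replicates, threshold, variance prior, treatment of zeros, filter, EC minimum, single-enhancer measure, baseline, model and promoters. Reads were not analysed here. The primers of the *Sox2* pair are not reported here.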

Additional observations from a re-analysis of the deposited data

Results flagged for a closer look

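Of the overlapping-fragment combinations, 12 differed between promoters in their deviation from additivity (limma's moderated F), which was a tested difference between libraries. The highest F values were 12.6 for Otx2_E111- Otx2_E112-, 7.55 for Otx2_E112+ Otx2_E111+ and 7.33 for Otx2_E111- Otx2_E112+. The 12 were among 15 tested (80.0%), beside 80.6% of all EE combinations. All 15 were of *Otx2* fragments or of Nodal_E160-Nodal_E159, and no combination of the *Nanog* or *Sox2* pair could be tested. In these 3 combinations the *Fgf5* library, whose baseline rests on 23 control combinations, had the highest value. Without that library more combinations could be tested. Then 13 of 24 overlapping combinations (54.2%) differed between promoters, beside 74.9% of all EE combinations. The reason for the lower shares was not tested. The part of the baseline in these differences was not tested.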

How the results depend on the processing

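Of the recalculated values, 224 stayed within the limits set for an unchanged result, 69 moved and 2 reversed in sign. Precision was limited by 3 replicates per library, by an unknown number of barcodes, and by the low *Fgf5* baseline. The cause of the changes below was not tested, except that fewer replicates and stricter thresholds leave fewer calls by construction.

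With each replicate left out in turn, overlapping combinations higher than additive ranged from 3 to 17 and lower ones from 24 to 73, and same-fragment combinations from 0 to 1 and from 3 to 9. Against the stronger single enhancer the ranges were 30 to 38 higher and 35 to 49 lower for overlapping, and 0 to 2 and 4 to 7 for same-fragment combinations. Calls between promoters ranged from 4 to 8, between orders from 0 to 4, between strands from 0 to 0, between orientations from 0 to 0, for the excess of the strand difference from 0 to 0, and against the fragments' medians from 0 to 0 in both directions. Combinations beyond 1 SD ranged from 17 to 21 above and 58 to 63 below for overlapping, and 1 to 2 and 5 to 6 for same-fragment pairs. Mean log2 ratios ranged from -0.82 to -0.68 for *Nanog*, -0.19 to -0.12 for *Nodal*, -0.22 to -0.11 for Otx2_E110 with Otx2_E111, 0.13 to 0.19 for Otx2_E111 with Otx2_E112, -0.09 to -0.06 for *Sox2*, -0.18 to -0.14 for overlapping and -0.45 to -0.25 for same-fragment combinations.

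At an FDR of 0.01, 6 overlapping combinations were higher and 29 lower than additive and 26 and 23 than the stronger single enhancer, for same-fragment combinations 0 and 4, and 0 and 2, and 0 pairs were called against the fragments' medians, between strands or between orders. With a limit of 2 SD, 2 overlapping combinations were above and 19 below, and 0 and 1 same-fragment ones. With a variance trend 2 overlapping pairs were higher than the fragments' medians, and with the mean over EC combinations 1 was. With the mean, *Nodal* was -0.23, *Sox2* -0.13 and same-fragment combinations -0.43. With at least 1 EC combination, 4 pairs were lower than the fragments' medians and *Sox2* was -0.041. With at least 10, 5 combinations differed between promoters, 1 same-fragment combination was higher than the stronger single enhancer and 1 above 1 SD, and the same-fragment mean was -0.46. Above the baseline only, 3 same-fragment combinations were lower than the stronger single enhancer and their mean was -0.45. With orientation-matched single enhancers, 19 overlapping combinations were higher than additive, 4 pairs lower than the fragments' medians, the overlapping mean was -0.10, and *Sox2* turned to 0.059. With the deposited baseline 2 same-fragment combinations were higher. Under the multiplicative expectation, 15 overlapping combinations were higher and 149 lower, 2 same-fragment ones were higher, and the means were -2.54 for *Nanog*, -0.79 for *Nodal*, -0.030 for Otx2_E110 with Otx2_E111, -0.20 for Otx2_E111 with Otx2_E112 (reversed), -0.45 for *Sox2*, -0.38 for overlapping and -0.61 for same-fragment combinations. With the replicate number as a block, as in a paired design, 14 overlapping combinations differed between promoters instead of 12.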
